A study of Sus scrofa with 16 samples.

Results

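The windows described here are 500 bp stretches of chromosomes 1 to 18 that lay under methylation peaks of Tibetan highland pigs (TH) and of no other group. They were chosen by the peaks themselves: base 250 of a window had to be covered by 3 or 4 TH peaks and by 0 peaks of Yorkshire highland pigs (YH), Tibetan lowland pigs (TL) and Yorkshire lowland pigs (YL). This gave 912 TH-private windows among the 620135 windows under at least 1 peak of any list (0.147%), and among the 76919 windows with 3 or 4 TH peaks (1.19%). Because the rule used the peaks of all 4 lists, the difference between the groups at these windows is how they were found and was not tested. Adjoining windows were joined, which gave 648 regions of 456 kb in total, and 1961 TH peaks covered them.

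The study profiled DNA methylation in heart tissue of 16 male pigs of 6 months of age by methylated DNA immunoprecipitation sequencing (MeDIP-seq), with 4 animals per group. All were castrated boars, vaccinated and dewormed, that spent their lives from conception on at the elevation named. YH and TL came from herds brought to the other elevation only a few years earlier. Feeding is stated to be the same for pigs at the same elevation. Each elevation was a single place, so that elevation and place of rearing cannot be told apart. The deposit holds a single peak list for each group, on the Sscrofa10.2 build, and no base of it lay under more than 4 peaks. Each list was taken to join the peaks of its 4 animals, but no peak carries the name of its animal.

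In mammals, methylation is placed mostly on cytosines of CpG dinucleotides by DNA methyltransferases, and it is copied to the new strand when DNA is replicated. Methylated promoters are often silent, while methylation within gene bodies and between genes is common in expressed and unexpressed regions alike. In MeDIP-seq an antibody against 5-methylcytosine pulls down sheared DNA, so that reads pile up where many methylated CpGs lie close together. A peak is a stretch where the pile exceeds what the peak caller expected, and the absence of a peak does not mean the absence of methylation.

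The tags, which are the reads that the authors' peak caller counted in each peak, summed to 10518464 over the TH list, which lay between TL with 8639855 and YH with 11333828, and YL had most with 13893033. The total depth of the libraries is not in the lists. One TH library could be told apart from the others. A total of 100907 TH peaks carried no entry in the column for the peak end, and the 92036 of these on chromosomes 1 to 18 never overlapped each other, while the other 166825 peaks lay at most 3 deep. Of the 3445 TH peaks with a fold enrichment of 9.45, the commonest value of these marked peaks, 3429 were marked. The marked peaks were therefore taken as those of a single library, which held 35.6% of the TH peaks against a mean of 55608 peaks in each of the other 3 libraries.

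The marked library had a peak over 866 of the 912 private windows and over 73863 of the 76007 shared windows, which had 3 or 4 TH peaks and at least 1 peak of another list. Only 46 private windows lacked it. With this library left out and all 3 others required, 76 private windows in 66 regions remained of the 912. They were 0.338% of the 22482 windows that the other 3 libraries all covered. With any 2 of the other 3 libraries required, 2829 windows met the rule. Both numbers change the library and the number of peaks required together, and the count moved down under the first and up under the second. All 3 other libraries covered 8.33% of the private windows and 29.5% of the shared windows.

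Of the 912 windows, 882 lay under 3 TH peaks and 30 under 4. All 4 TH libraries covered 3.29% of the private windows and 26.4% of all windows with 3 or 4 TH peaks. Just outside the rule on the side of TH, 7485 windows had 2 TH peaks and no other peak, and 55131 had a single TH peak and no other. Just outside on the side of the other lists, 1718 windows had 3 or 4 TH peaks and exactly 1 peak elsewhere. That peak was in YL at 734 windows, in TL at 589 and in YH at 395. It had a median of 40 tags in YL, 29 in TL and 31 in YH, where the TH peaks over the same windows had medians of 35, 30 and 30 tags. The single foreign peaks thus had about as many tags as the TH peaks over the same windows, in lists of unequal total tags. The median fold enrichment of these foreign peaks, the ratio of reads to the expected background, was 6.28 in YL, 6.88 in TL and 6.55 in YH. The fold of the TH peaks over the same windows was not taken, so that the folds are not compared.

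Most windows with 3 or 4 TH peaks belonged to no group in particular. At 64664 of the 76919 (84.1%) each of the other 3 lists had a peak too. A peak was found in both Yorkshire lists but not in TL at 4106 windows, in both lowland lists but not in YH at 2897, and in TL and YH but not in YL at 1477. The windows that TH shared only with YL numbered 1323, those shared only with TL, the lowland group of the same breed, 970, and those shared only with YH, the other group at high elevation, 570. The 912 private windows fell between these numbers. Among the windows shared with a single other list, YL came first and had the longest list, and TL came before YH although its list was shorter.

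Under the same rule 631 windows were private to YH, 454 to TL and 1604 to YL, which were 0.102%, 0.0732% and 0.259% of the windows under any peak. As a share of the windows with 3 or 4 peaks of the group, TH had 1.19% (95% Wilson confidence interval 1.11–1.26%), YH 0.658% (0.608–0.711%), TL 0.649% (0.592–0.711%) and YL 1.4% (1.33–1.47%). These intervals cover counting error only, and neighbouring windows share their peaks. Without the marked library, the TH number lay between 76 and 2829 by the number of other TH libraries required. No library of the other lists could be told apart and left out. Windows under 4 peaks made up 8.67% of the private windows in YL, 6.66% in YH and 4.85% in TL, against the 3.29% in TH. Among all windows with 3 or 4 peaks of the group, they made up 43.1% in YL, 47.2% in YH and 42.7% in TL against 26.4% in TH, so that the lower value of TH was found over its whole list. With 1 list per group there is no spread between animals for these numbers, and no test was made. With exactly 4 peaks required, fewer windows were private to TH (30) than to YH (42). Of the windows under 4 peaks of the group, however, these were 0.148% in TH (0.104–0.211%) and 0.0927% in YH (0.0686–0.125%), with intervals that overlap, against 0.0736% in TL and 0.281% in YL.

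**Figure D1:**
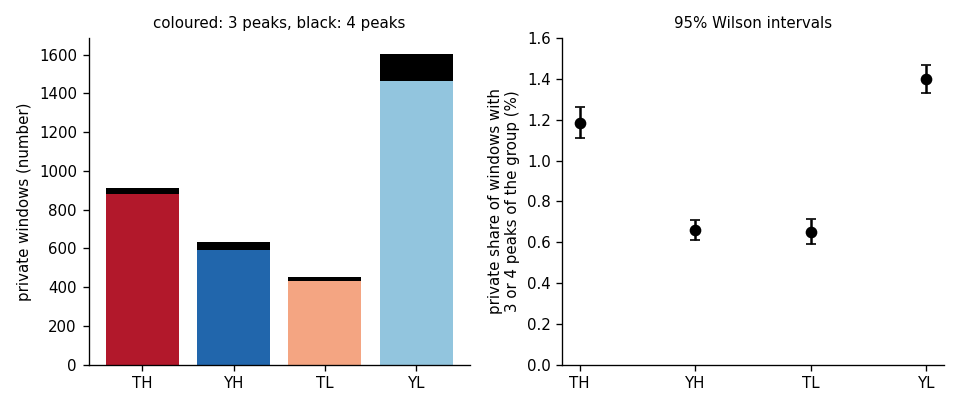
Number of windows private to each group (left, bars; black, windows under 4 peaks) and their share of the windows with 3 or 4 peaks of that group (right, in %, with 95% Wilson intervals). TH with 912 windows and YL with 1604 lay above YH with 631 and TL with 454, and the shares of TH and YL (1.19% and 1.4%) lay above those of YH and TL (0.658% and 0.649%). Without the marked library, the TH number lay between 76 and 2829 by the number of other TH libraries required.

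The regions were short. Of the 648, 468 (72.2%) were a single window, 132 were 2 windows and 28 were 3 windows, and the longest was 8 windows or 4000 bp. From the first to the last base of the covering TH peaks, a region spanned a median of 1249 bp (middle quartiles 962–1782 bp). The starts of the covering peaks lay a median of 187 bp apart from the first to the last, and their ends 182 bp. In 53 regions both the starts and the ends fell within 100 bp of each other, so that the libraries gave nearly the same peak.

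The regions were of 2 kinds. In 372 regions (57.4%, 95% Wilson confidence interval 53.6–61.2%) no peak of YH, TL or YL touched any of the TH peaks over the region, and these regions are said to stand alone. In the other 276 regions at least 1 of the TH peaks over the region overlapped a peak of another list, inside or outside the private windows. The share of all TH peaks that touch no peak of another list is not given here, so that 57.4% has no background beside it. The summit of the TH peak, its point of most reads, lay inside the region for 94.9% of the 1128 pairs of a peak and a region that stands alone and for 18.5% of the 839 pairs beside other peaks, where a peak over 2 regions counts in each. Beside other peaks, most summits thus lay outside the private windows, but 155 were inside them. Regions that stand alone held 606 of the 912 windows, while 255 of the 276 regions beside other peaks were a single window.

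Where other peaks touched the TH peaks, they came from YL at 197 regions, from TL at 183 and from YH at 157. All 3 lists were present at 95 of the 276 regions. A peak of YL alone was found at 46 regions, of TL alone at 44 and of YH alone at 20. In the other groups, the regions that stand alone made up 63.3% of the TL-private regions (58.1–68.1%), 40.4% of the YH-private regions (36.1–44.9%) and 40.8% of the YL-private regions (38.1–43.7%). The share in TH was thus nearer to that in TL than to those in the Yorkshire lists, a difference without a test.

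**Figure D2:**
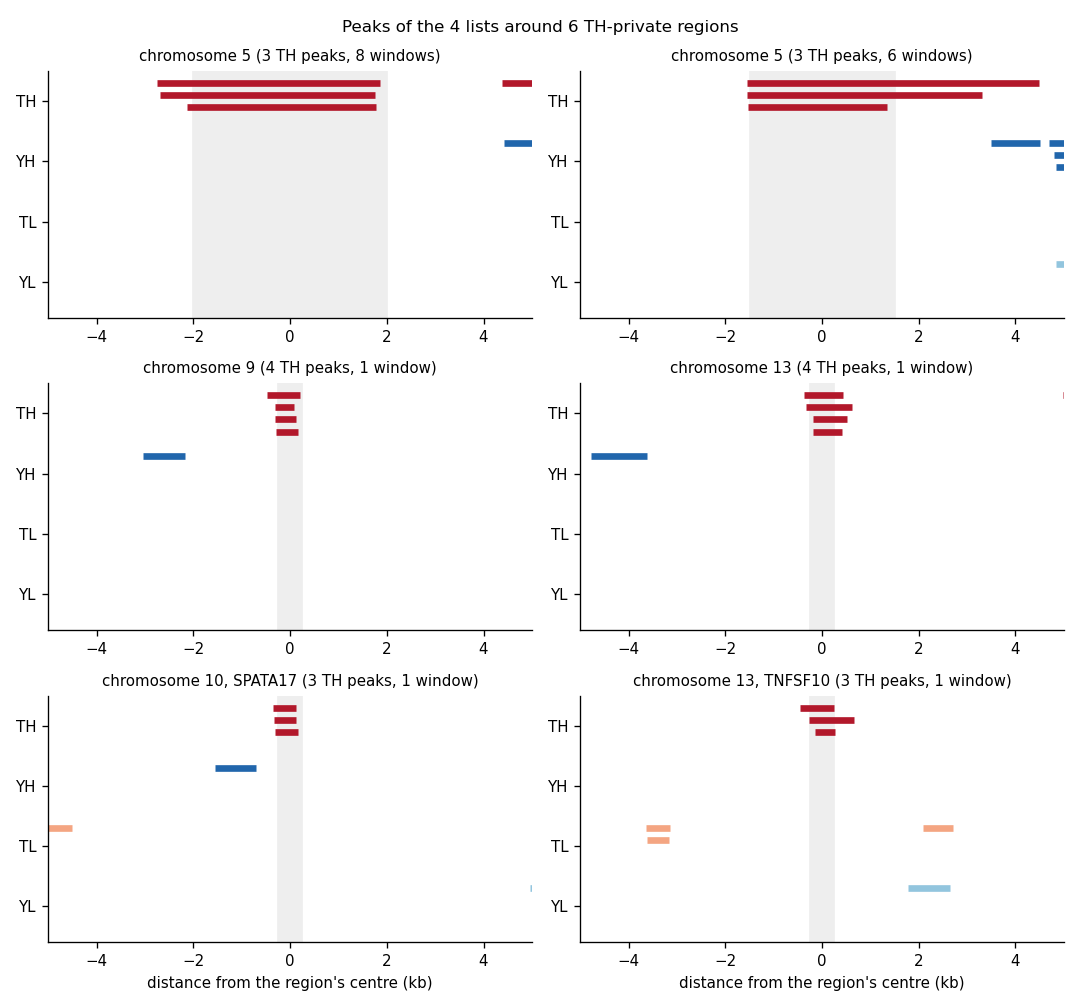
Peaks of TH, YH, TL and YL (horizontal bars, 1 row per overlapping peak) within 5 kb of the centre of 6 TH-private regions, with the private windows shaded and the distance from the centre in kb. In the region of 6 windows on chromosome 5, a YH peak overlapped the longest of the 3 TH peaks over the region, outside the shaded windows, and in the other 5 regions no other list touched the TH peaks over the region.

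The nearest peak of any other list began or ended a median of 785 bp from the region, and it lay within 2000 bp of 426 regions (65.7%) and within 10000 bp of 621 (95.8%). The same median was 959 bp for TL-private regions, 6.5 bp for YH-private regions and 19.5 bp for YL-private regions, so that TH regions lay farther from other lists than those of the Yorkshire groups, a difference without a test. The median distance was 2034 bp to the nearest YL peak, 2896 bp to the nearest YH peak and 2909 bp to the nearest TL peak. In 233 regions a peak of another list touched or entered the private windows without reaching base 250 of any. If no other peak was allowed within 2000 bp of base 250, 433 windows were left.

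**Figure D3:**
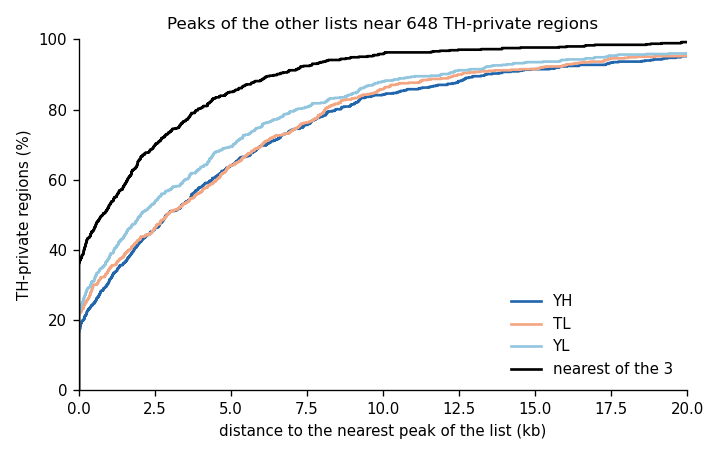
Share of the 648 TH-private regions (in %) with a peak of YH, TL or YL within the distance on the horizontal axis (in kb, up to 20 kb). At 500 bp TL (30.1%) and YL (31.2%) lay above YH (24.7%), at 2 kb YL (49.5%) lay above TL (43.1%) and YH (42.1%), and the black curve, the nearest of the 3 lists, reached 65.7% at 2 kb and 95.8% at 10 kb.

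A few regions were isolated. The region farthest from other lists lay on chromosome 3 (chr3:143474501-143475000), 218287 bp from the nearest YL peak, 218330 bp from TL and 220395 bp from YH. Its 3 TH peaks had 12, 14 and 20 tags and fold enrichments of 12.42, 10.18 and 14.34, and they started within 65 bp and ended within 31 bp of each other. The next was chr14:129883001-129884000, 69241 bp from the nearest other peak, with TH peaks of 17, 18 and 24 tags and fold enrichments of 10.9, 14.52 and 15.85. Both were named after their distances were seen. Their peaks had few tags but fold enrichments above the median of TH peaks.

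The peaks over private windows were compared with other TH peaks by their tags, their fold enrichment (the ratio of the reads at the peak to the background that the caller expected) and their length. They had a median of 25 tags (middle quartiles 17–43), against 27 over all 258861 TH peaks of chromosomes 1 to 18 and 32 over the 114427 TH peaks at shared windows with 3 or 4 TH peaks. Their median fold enrichment was 8.28, as over all TH peaks, and 8.63 at shared windows. Their median length was 1007 bp, against 992 bp over all TH peaks and 1132 bp at shared windows.

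The 2 kinds of regions also differed in their peaks. A longer peak is more likely to reach a peak of another list, so that the split itself bears on length and tags. Over regions that stand alone, the peaks had a median of 21 tags, a fold enrichment of 8.44 and a length of 875 bp. Beside other peaks, the medians were 32 tags, 8.06 and 1230 bp, the same tags as at shared windows. TH peaks at places with fewer than 3 TH peaks had a median of 23 tags, a fold enrichment of 8.03 and a length of 897 bp, so that the peaks that stand alone were of the size of the peaks that few TH libraries shared. Within the marked library, the medians were 23 tags over regions that stand alone, 38 beside other peaks and 38 at shared windows. In the other 3 libraries they were 20, 30 and 30 tags, so the order was the same with and without the marked library. Peaks of 1 list share 4 animals and are not replicates, and no test was made.

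**Figure D4:**
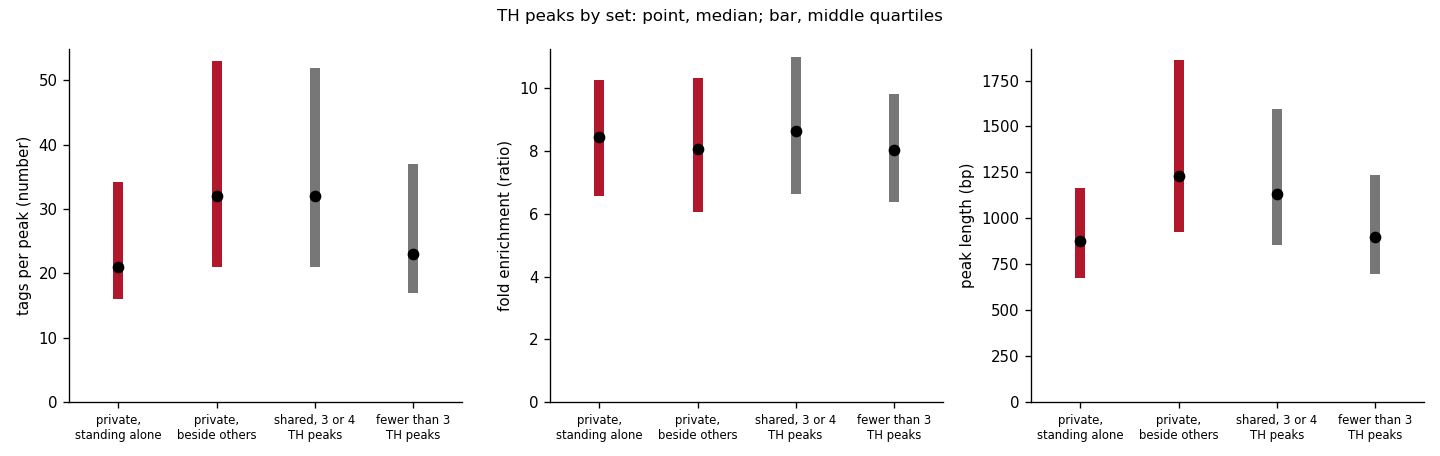
Tags per peak, fold enrichment (a ratio) and peak length (in bp) of TH peaks at private regions that stand alone, at private regions beside other peaks, at shared windows with 3 or 4 TH peaks and at places with fewer than 3 TH peaks. Points are medians and bars the middle quartiles. The medians of 21, 32, 32 and 23 tags were matched by lengths of 875, 1230, 1132 and 897 bp, while the bars of fold enrichment overlapped throughout.

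The regions with the most windows were wide stretches of low fold enrichment. The longest lay on chromosome 5 (chr5:111468501-111472500, 8 windows), under TH peaks of 184, 175 and 116 tags with fold enrichments of 5.76, 5.21 and 4.02. The nearest peak of another list was a YH peak at 2433 bp, and TL and YL peaks were 6096 and 7086 bp away. At chr6:15185001-15188000 (6 windows), the peaks had 119, 154 and 123 tags and fold enrichments of 3.51, 3.71 and 4.15. These folds were near the lower end of all peaks over private windows, which ranged from 3.07 to 23.26.

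Another 3 such regions stood alone. At chr9:72278501-72281500 (6 windows) the TH peaks had 123, 84 and 105 tags, with fold enrichments from 3.21 to 4.62. At chr12:3365501-3368500 (6 windows) they had 82, 92 and 74 tags, with fold enrichments from 5.83 to 7.5. At chr15:149056001-149058500 (5 windows) they had 172, 80 and 148 tags, with fold enrichments from 4.41 to 4.85. The nearest foreign peaks were a YH peak at 1272 bp, a TL peak at 3518 bp and a YL peak at 2032 bp, respectively.

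The remaining region of this kind, chr5:857501-860500 (6 windows), was beside other peaks. Its TH peaks had 123, 238 and 143 tags, and the longest of them, 6045 bp, ran on beyond the private windows into a YH peak. Each of these 6 wide regions had a peak of the marked library over every window, and none was covered by all 4 TH libraries.

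The 30 windows under peaks of all 4 TH libraries formed 23 regions on 11 chromosomes, of which 12 stood alone. Their 92 peaks had a median of 23 tags and a median fold enrichment of 8.48, against 25 tags and 8.28 for all peaks over private windows. The weakest had 11 tags and the strongest 105. The tags were thus slightly lower and the fold slightly higher than over all private windows, which include these.

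The 4-library regions with the highest lowest fold were all single windows. At chr1:197508001-197508500 the 4 TH peaks had 12, 23, 22 and 21 tags and fold enrichments of 10.35, 15.43, 13.59 and 12.36. At chr13:26650501-26651000 they had 21, 20, 14 and 26 tags and fold enrichments of 14.34, 11.63, 10.35 and 21.48. At chr9:75176001-75176500 they had 22, 21, 26 and 13 tags and fold enrichments from 9.45 to 12.41. Each of these 3 regions was beside another peak: a single TL peak at the first and the third, and a TL and a YL peak at the second. YH peaks were more than 17 kb away from all 3, at 17557, 17419 and 22377 bp.

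Among the 3 regions that followed, 2 stood alone. At chr9:115153001-115153500 the 4 TH peaks had 12, 14, 14 and 15 tags and fold enrichments from 9.16 to 12.71, with the nearest other peak, of YH, at 1929 bp. At chr13:100766001-100766500 they had 13, 16, 17 and 16 tags and fold enrichments from 9.06 to 10.07, with a YH peak at 3368 bp. The third, chr15:86921001-86921500, had TH peaks of 20, 28, 39 and 20 tags and a YL peak beside it.

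Of the regions with 4 TH libraries, the farthest from other lists was chr16:84902501-84903500 (2 windows). Its TH peaks had 16, 35, 31 and 23 tags and fold enrichments of 9.69, 4.56, 7.42 and 5.3, and the nearest peaks of TL, YH and YL lay at 7273, 7356 and 7675 bp. The region chr5:79280001-79280500 followed at 6918 bp, with TH peaks of 13, 13, 14 and 16 tags. The next were chr17:8588501-8589000, at 4231 bp and with 16, 16, 23 and 23 tags, and chr14:136950001-136951000, at 3912 bp and with 26, 23, 19 and 18 tags. In all 4 regions the fold enrichment of the weakest TH peak was at least 4.56.

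The isolated region of chromosome 16 also had company of its own kind. A stretch of 961500 bp (chr16:84902501-85864000) held 3 of the 23 regions under 4 TH peaks and 6 of the 30 windows, and it ended 985056 bp before the last peak of the chromosome. Its middle region was covered by TH peaks of 105, 54, 68 and 89 tags and its last by peaks of 75, 42, 45 and 33 tags. The middle region was beside peaks of all 3 other lists, while the last stood alone with a YL peak at 559 bp. This stretch was named after its values were seen.

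By chromosome, the private share of the windows with 3 or 4 TH peaks was highest on chromosome 15 (71 windows, 2.23%, 95% Wilson confidence interval 1.77–2.81%), chromosome 14 (93 windows, 2.04%, 1.66–2.49%) and chromosome 13 (70 windows, 1.58%). It was lowest on chromosome 10 (24 windows, 0.619%, 0.416–0.920%) and chromosome 7 (36 windows, 0.771%, 0.557–1.07%). Per Mb, chromosome 14 had most with 0.605 private windows and chromosome 1 fewest with 0.216. Cut into 4 equal parts from the first base on, chromosome 14 held 21, 16, 18 and 38 of its private windows and chromosome 15 held 13, 18, 17 and 23. As shares of the windows with 3 or 4 TH peaks, the parts had 1.89%, 1.57%, 2.21% and 2.34% on chromosome 14. On chromosome 15 they had 2.5%, 3.06%, 2.56% and 1.64%, so that its last part held most private windows at the lowest share. The private windows were thus spread along both chromosomes and not gathered at a single place.

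In the other lists, the private share on chromosome 15 was 2.20% in YL, 0.720% in YH and 0.702% in TL, and on chromosome 14 it was 1.44%, 0.560% and 0.700%. YL thus had its highest share on chromosome 15 too. For the windows under all 3 TH libraries other than the marked one, the private share was 0.701% on chromosome 15 (7 windows), 0.655% on chromosome 14 (8 windows), 0.905% on chromosome 13 (12 windows) and 0.972% on chromosome 16 (7 windows), against 0.338% over all. With 2 of these 3 libraries required, only the number per Mb was taken, not the share. By that measure chromosome 12 had most private windows and chromosome 2 fewest, which cannot be set against the shares above.

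**Figure D5:**
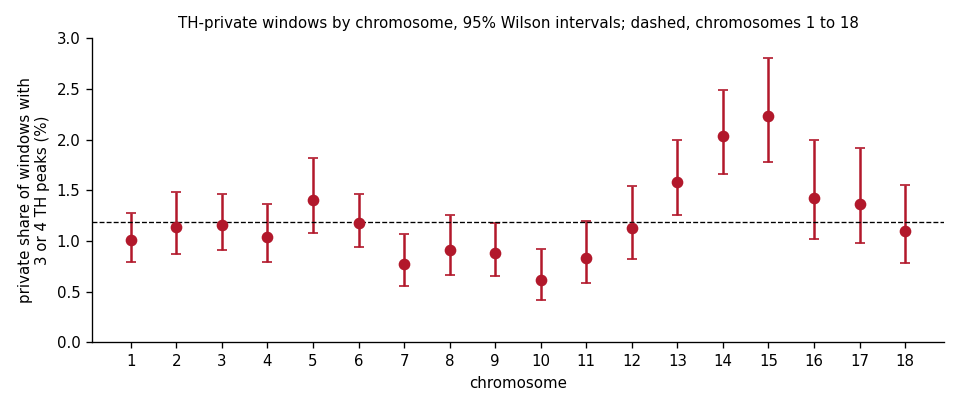
Share of the windows with 3 or 4 TH peaks that were private to TH (in %, with 95% Wilson intervals for counting error) on chromosomes 1 to 18, and over all of them (dashed, 1.19%). Chromosomes 13, 14 and 15 lay above the dashed line with their whole interval, and chromosomes 7, 9 and 10 below it, chromosome 9 narrowly (upper limit 1.179%). Neighbouring windows share their peaks, which the intervals do not allow for, and no test was made.

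Along the chromosomes, the outer 10% at each end held 32.2% of the private windows and 34.5% of the shared windows with 3 or 4 TH peaks. Private windows therefore lay at the ends about as often as other windows with TH peaks. Neighbouring regions were a median of 2172000 bp apart, and 473 of the 556 bins of 1 Mb with a region held only 1. The densest bin, on chromosome 5 from 106000001 to 107000000, held 5 regions of 9 windows. Each of these 5 was beside a peak of another list, and 2 of them lay under the same 3 TH peaks.

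Genes could be named only where the part of the study's supplement used here lists a window, as Sscrofa10.2 gene models were not used here. That part lists windows of 6 chromosomes that differed between 2 groups by the authors' own test, so it is no sample of the genome. Since it was used only in part, nothing is read from how many private windows it lists or how many of these are intergenic. The 3 listed private windows outside intergenic sequence were in an intron of SPATA17, in the transcription termination region of TNFSF10, a stretch downstream of the gene, and in a coding sequence on chromosome 12 (chr12:61906501-61907000) without a gene name.

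TNFSF10 encodes TRAIL, a ligand of the tumor necrosis factor family that starts apoptosis through death receptors. Its window (chr13:119883001-119883500) lay under TH peaks of 16, 17 and 14 tags with fold enrichments of 10.9, 11.32 and 11.44, of which the first was of the marked library. The region stood alone, with a YL peak at 1531 bp, a TL peak at 1838 bp and a YH peak at 11805 bp. All 3 folds were above the median of 8.28 for peaks over private windows. In the RefSeq annotation of Sscrofa11.1, TNFSF10 lies between GHSR, the receptor of ghrelin, and NCEH1, a cholesterol ester hydrolase.

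SPATA17 is named for its association with spermatogenesis. Its window (chr10:9991001-9991500) was 1 of the 46 without the marked library, and its TH peaks therefore came from the other 3. The supplement lists it both for TH against YH and for TL against YL, although no TL or YL peak covered its base 250. The TH peaks had 24, 16 and 14 tags and fold enrichments of 8.93, 6.02 and 5.98. The 3 peaks were 465, 469 and 473 bp long and nearly congruent, and a YH peak lay 457 bp away, with TL and YL peaks at 4271 and 4720 bp. In Sscrofa11.1 its neighbours are GPATCH2 and RRP15.

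Of 24 genes taken from the study's text, none had a private window in the part used here, where 16 of their windows are listed and the private share of windows under any peak was 0.147%. Nothing about these genes can be read from a count of 0 in so few windows. They include genes of signaling by hypoxia-inducible factor 1, of insulin signaling and of angiogenesis, and 12 of them had listed windows. The nearest to a private region was the window of ERG, an ETS transcription factor of endothelial cells, at 130501 bp. The windows of GRB2, an adaptor of receptor tyrosine kinases, and of FGFR2, a fibroblast growth factor receptor, followed at 188001 and 207501 bp. Of the 16 windows, 4 lay under 3 TH peaks, and other lists kept them from the rule. The promoter window of ICA had 2 YH peaks and no TL or YL peak, and that of FOXO1, a transcription factor that insulin signaling restrains, had 4 TL peaks and no Yorkshire peak. An intron window of BCKDHB, a subunit of the enzyme complex that breaks down branched-chain amino acids, had 1 YH, 4 TL and 3 YL peaks, and an intron window of IGF1R, the receptor of insulin-like growth factor 1, had 4 peaks in each other list. The promoter window of EPHX2, a soluble epoxide hydrolase, had 1 TH peak and none elsewhere.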

How the data were processed

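Heart DNA of 16 pigs (4 each of TH, YH, TL and YL, grouped by their titles) was profiled by MeDIP-seq. After cleaning of the reads with FASTX, the authors used Bowtie for mapping to Sscrofa10.2, and MACS for the peaks. They deposited 1 list per group with the position and length of each peak, its tags (a count without normalization) and its fold enrichment (a ratio from the peak caller). The study's methods state no control library for the peak caller. Peak ends were taken from the joint start and end field. Peaks over base 250 of each 500 bp window on chromosomes 1 to 18 were counted, and windows with 3 or 4 TH peaks and 0 others were joined to regions. Chromosome lengths were the largest peak ends. Total depth is not in the lists, so that precision is given only as 95% Wilson intervals for shares, which cover counting error. No test was made, because the rule used the peaks of all groups and no peak names its animal.

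Regions named were the 6 of most windows (ties by tags), the 6 under 4 TH peaks with the highest lowest fold, the 4 under 4 TH peaks farthest from other lists, and those with a gene symbol in the supplement. The members and lists were chosen with earlier results of these data known. The authors' comparisons in the supplement (reads per window, folds, p-values) were not used. Alternatives are given in the closing section. The marked TH library was seen in the list and left out as an alternative added after seeing the data. The window count was tested on planted windows. No sequence was read, since no genome of this build was used. The scripts ran under Python 3.11.15 with pandas 2.3.3 and NumPy 2.4.6, intervals came from SciPy 1.17.1, and plots from Matplotlib 3.10.9.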

Additional observations from a re-analysis of the deposited data

How the results depend on the processing

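The number of 912 private windows stayed within 1.5 times its value with peaks of at least 20 tags (611), with a fold of at least 5 (1211), with 1 bp of overlap (1299), with the grid shifted by 250 bp (875), with chromosome X (929) and with no other peak within 500 bp (637). It fell to 30 with exactly 4 TH peaks, 482 with all 500 bp covered and 433 with no other peak within 2000 bp. The windows themselves changed more than their number, since 544 of the 912 were kept with at least 20 tags, 684 with a fold of at least 5, 679 with 1 bp of overlap and 295 with all 500 bp covered. Without the marked TH library, an alternative added after seeing the data, the number lay between 76 and 2829 by the number of other libraries required. The 648 regions fell to 66 with all 3 other libraries required, and regions were not counted with 2 of the 3 required. The other animals could not be left out, as their peaks are not told apart. No paired analysis was possible because no peak names its animal. The regions numbered 23 with exactly 4 TH peaks and 371 with at least 20 tags.

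The median of private over all TH peaks was 0.926 for tags, 1 for fold enrichment and 1.02 for length. Against shared windows these ratios were 0.781, 0.959 and 0.890, the length changing its side of 1. With means they were 0.989, 0.984 and 1.05, and for regions with 4 TH peaks 0.852, 1.02 and 1.04. The share of regions with another peak within 2000 bp, 65.7%, was 52.5% of windows from base 250 and 50.8% for other peaks of at least 20 tags. The highest chromosome per Mb was 2.79 times the lowest, 3.61 times as a share of TH windows, 2.34 times for regions and 2.10 times without the marked library with 2 others required. With exactly 4 peaks, 30 windows were private to TH, 42 to YH, 22 to TL and 139 to YL, which were 0.148%, 0.0927%, 0.0736% and 0.281% of the windows under 4 peaks of the group, so that YH passed TH in number but not in share. As shares of the windows with 3 or 4 peaks of the group, the 912, 631, 454 and 1604 windows private under 3 or 4 peaks were 1.19%, 0.658%, 0.649% and 1.4%. With at least 20 tags, TL fell to 243, while YH had 529 and YL 1604, by number the same as without the minimum.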

Other observations

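Outside chromosomes 1 to 18, the same rule gave 17 TH-private windows on chromosome X, against 16 for YH, 3 for TL and 31 for YL. They were 1.29% of the windows of chromosome X with 3 or 4 TH peaks, and 0.693%, 0.375% and 1.16% in the other lists. On unplaced scaffolds there were 26 TH-private windows, 25 of YH, 19 of TL and 73 of YL, or 0.516%, 0.384%, 0.411% and 1.01% of the windows with 3 or 4 peaks of the group.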
